A study of Homo sapiens with 15 samples.

Results

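Short internal exons, of 60 nt or less, were examined in libraries of exon junction complex (EJC) footprints and of RNA-seq from the human line HEK293 Flp-In TRex, an embryonic kidney line. From the exon count table, the rule took exons of transcripts with 3 to 39 exons that had neither the lowest nor the highest start of their transcript, were at most 60 nt long and had a summed count of at least 20 over the 15 libraries. It gave 5474 of 279143 exons, in 3418 genes. Of these, 11 were 27 nt or less and 5463 were 28 to 60 nt long. Members were chosen by their summed count, and 13 of the 15 libraries were footprints, so an exon could become a member through footprints alone.

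The EJC is a group of proteins that splicing leaves on the mature RNA a short distance upstream of each exon junction. EIF4A3, MAGOH and RBM8A form its core, and CASC3 and RNPS1 are peripheral proteins that join different forms of the complex. The complex marks spliced RNA for export, translation and nonsense-mediated decay, and it needs room on the upstream exon. Very short exons, called microexons, are known mainly from neurons and are spliced with the help of dedicated enhancers.

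Footprints were RNA pieces protected from RNase I, purified through a FLAG tag on a stably expressed EJC protein and then with an antibody against another EJC protein (RIPiT). FLAG-CASC3 and FLAG-RNPS1 lines, each purified with EIF4A3 antibody after crosslinking with 0.1% formaldehyde for 10 min, gave 4 groups of 2 libraries, with cycloheximide (100 µg/ml for 3 h, which blocks translation elongation) or without it. Native footprints, with no crosslinking and no cycloheximide, came from 5 pairs with 1 library each: FLAG-MAGOH with EIF4A3, FLAG-CASC3 with EIF4A3, FLAG-RNPS1 with EIF4A3, FLAG-MAGOH with CASC3, and FLAG-MAGOH with RNPS1. The 2 RNA-seq libraries were made from rRNA-depleted RNA of cells with no tagged protein, no crosslinking and no cycloheximide. Tagged protein and cell line cannot be told apart. Nothing in the labels shows whether replicates were grown separately, and a p-value here rests on the spread between samples that may be technical.

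Total exon counts ran from 467700 to 8056882 per library. Replicate 2 of the cycloheximide-treated RNPS1 footprints, the smallest library, stood apart: over the members its log2 CPM values correlated with those of replicate 1 at r = 0.0546, against 0.469 to 0.906 in the other 4 replicated groups. Results that rest on it are given with and without it. Among markers of the line, KRT8, KRT18, VIM and NEFL had counts in every library, PAX2 had 0.845 to 39.2 CPM, and NEFM was at 0 in 8 libraries. PTPRC, ALB and PECAM1 stayed at or below 4.36 CPM, while COL1A1, a gene of fibroblasts, had 6.95 to 47.5 CPM.

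Almost no exon of 27 nt or less reached the count minimum. Of 1397 such internal exons, 11 were members (0.787%) and 1015 had 0 counts in every library. Of 14264 internal exons of 28 to 60 nt, 5463 were members (38.3%), against 60.7% of 154865 internal exons over 60 nt and under 500 nt. The share of exons that were members was 0 at 1 to 19 nt, 1.08% at 20 to 27 nt, 11.2% at 28 to 34 nt, 17.6% at 35 to 40 nt, 35.9% at 41 to 45 nt, 46.5% at 46 to 50 nt, 41.6% at 51 to 55 nt and 53.4% at 56 to 60 nt. At the edges of the rule, 114 members had a summed count of exactly 20 and 101 short exons missed it with 19. The 380 members of 60 nt had a median summed count of 91, and the 447 internal exons of 61 nt with at least 20 counts had 87.

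**Figure D1:**
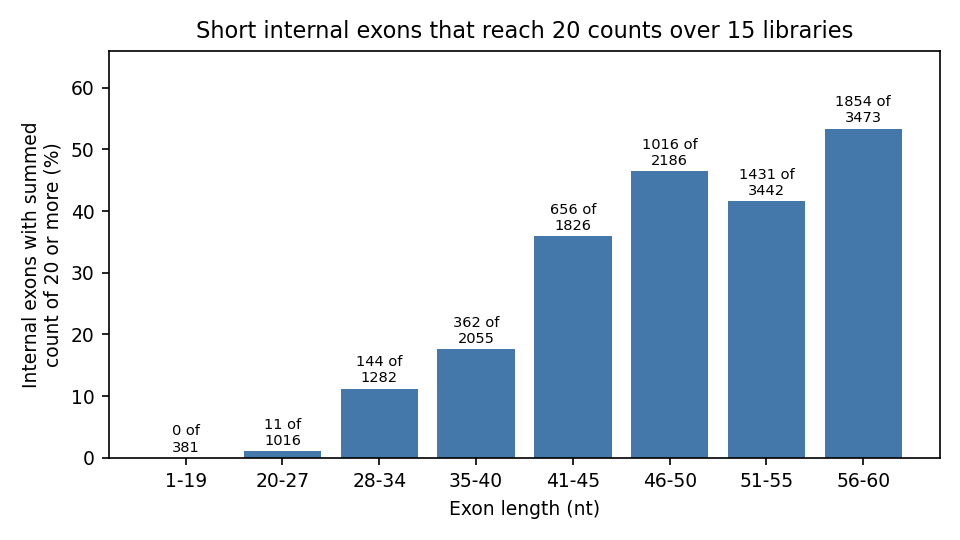
Share of internal exons with a summed count of 20 or more (percent, vertical axis from 0) by exon length in nt, with the number of members of all internal exons above each bar. The share is 0 at 1 to 19 nt, 1.08% at 20 to 27 nt and 53.4% at 56 to 60 nt.

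The sequences of 4 of the shortest exons are shown first, because they show how many of the positions 20 to 27 nt before the 3′ end, where footprints of the complex are known to lie, they contain. Each line gives the last 30 nt of the upstream exon in lower case and then the whole short exon in capitals, read from GENCODE v29 transcripts (GRCh38). In AEBP2, a cofactor of the Polycomb repressive complex, the exon is exon 8 of 9 (chr12:19518087-19518113, plus strand, coding).
AEBP2, 27 nt: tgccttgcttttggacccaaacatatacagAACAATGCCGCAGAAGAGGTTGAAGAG
SFXN4 encodes a mitochondrial membrane protein, and its exon is exon 4 of 14 (chr10:119161055-119161081, minus strand, coding).
SFXN4, 27 nt: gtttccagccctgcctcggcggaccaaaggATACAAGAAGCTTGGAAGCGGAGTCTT
SH3GLB2 encodes endophilin B2, and its exon is exon 7 of 11 (chr9:129010670-129010693, minus strand, coding).
SH3GLB2, 24 nt: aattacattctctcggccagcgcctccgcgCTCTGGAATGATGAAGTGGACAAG
TIMM50 encodes a subunit of the protein import channel of the inner mitochondrial membrane, and its exon is exon 4 of 11 (chr19:39483135-39483156, plus strand, coding).
TIMM50, 22 nt: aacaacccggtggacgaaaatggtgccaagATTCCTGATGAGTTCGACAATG
Of the 8 positions that lie 20 to 27 nt before the exon's 3′ end, all 8 fell inside the exon in AEBP2 and SFXN4, 5 in SH3GLB2 and 3 in TIMM50, and the rest fell in the upstream exon.

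Counts over these exons were low in every group. The AEBP2 exon had 60 and 21 counts in cycloheximide-treated CASC3 footprints, 11 and 1 in cycloheximide-treated RNPS1 footprints, 1 and 0 in untreated CASC3 footprints, 2 and 2 in untreated RNPS1 footprints, at most 1 in each native library and 0 in both RNA-seq libraries. The SH3GLB2 exon had 18 of its 30 counts in replicate 2 of untreated RNPS1 footprints. The TIMM50 exon had 18 of its 25 counts in the 5 native libraries, 4, 3, 6, 1 and 4 in the order of the pairs above. Each of these 3 exons had most of its counts in a different group of libraries, and no RNA-seq read was counted on any of them.

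The RPL41 exon of 23 nt, from the gene for the smallest ribosomal protein, was among the 3 exons of 27 nt or less that could be tested across the 8 crosslinked libraries. It had 4 and 2 counts in cycloheximide-treated CASC3 footprints, against 3 and 6 in untreated CASC3 footprints. These are 0.496 and 0.298 CPM with cycloheximide and 3.18 and 7.56 CPM without it, so the groups did not overlap, and the exon was lower with cycloheximide (log2 fold change -3.59, SE 1.14, edgeR adjusted p = 0.0164). HMGN2, HNRNPC, GAS5 and SFXN4, whose exons of 20, 26, 23 and 27 nt had summed counts of 36, 31, 80 and 29, were not among the 3.

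The exon of 27 nt in CXXC1, a CpG-binding protein, had a summed count of 24 and was not among the 3 either; it is named here after its values were seen. The last 2 of the 11 belong to EEF1A1, the gene for translation elongation factor 1A. The annotation separates them from each other by 2 nt and one of them from the next exon by 4 nt. Gaps of that size are too short for introns, so their values are not read as those of exons between splice junctions. The exon of 21 nt had 14 and 4 counts in untreated CASC3 footprints and 14 and 17 in untreated RNPS1 footprints, against 75 and 65 in RNA-seq. The exon of 20 nt had 0 and 1 counts in untreated CASC3 footprints and 1 and 2 in untreated RNPS1 footprints, against 14 and 17 in RNA-seq. Both lay lower in footprints without overlap, and since both passed the filter on low counts through RNA-seq, where they are high, no test of that difference is given. For the exon of 20 nt the pooled ratio to RNA-seq was 0.0253 (95% exact counting interval 0.00062 to 0.152) in CASC3 and 0.0197 (0.00385 to 0.0631) in RNPS1. Relative to the rest of their own transcript, neither exon passed the test.

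For count density without the count minimum, all short internal exons were taken with at least 50 RNA-seq counts in their transcript's other exons. Their counts per nt were divided by those of the internal exons over 60 nt of the same transcripts. Exons with an annotated gap under 30 nt to a neighbour were left out, a choice made after the EEF1A1 values were seen. A ratio of 1 means the same counts per nt as longer exons, not the same counts per exon. Members of 28 to 60 nt had a median length of 52 nt. Internal exons over 60 nt and under 500 nt with at least 20 counts had 127 nt. At a ratio of 1 a shorter exon therefore holds fewer counts per exon, and footprints per junction were not measured. Counts are shares of a library, so fewer cells with a transcript, less RNA per cell and fewer complexes per RNA cannot be told apart.

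Count density was lower at 20 to 27 nt than at 56 to 60 nt in every library, footprints and RNA-seq alike. At 56 to 60 nt (1481 exons) the ratio was 0.998 and 1.25 in untreated CASC3 footprints and 0.896 and 1.00 in untreated RNPS1 footprints, against 0.695 and 0.700 in RNA-seq. At 46 to 50 nt (933 exons) it was 0.791 and 1.06 in CASC3 and 0.753 and 0.937 in RNPS1 footprints, against 0.572 and 0.527 in RNA-seq. At 41 to 45 nt (732 exons) it was 0.528 and 0.618 in CASC3 and 0.540 and 0.742 in RNPS1 footprints, against 0.488 and 0.415 in RNA-seq. In each of these 3 length classes all 4 crosslinked untreated libraries were above both RNA-seq libraries. The ratios pool counts over transcripts, so transcripts with many counts weigh most. For members of 28 to 60 nt the log2 difference, these footprints minus RNA-seq, was 0.71 when pooled and 0.14 as a median over transcripts. For the median, a fraction of a count was added to the short and to the longer exons of each transcript. Only 2135 and 1994 of the 5474 members had a count in the RNA-seq libraries, so many values under that median rest on the addition.

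The separation ended among the shorter exons. At 35 to 40 nt (562 exons) the ratio was 0.398 and 0.480 in untreated CASC3 footprints and 0.344 and 0.555 in untreated RNPS1 footprints, against 0.345 and 0.326 in RNA-seq, so that RNPS1 replicate 1 fell between the RNA-seq libraries and the other 3 were above them. At 28 to 34 nt (420 exons) the ratio was 0.190 and 0.265 in untreated CASC3 footprints and 0.269 and 0.463 in untreated RNPS1 footprints, against 0.255 and 0.175 in RNA-seq, where CASC3 overlapped RNA-seq and both RNPS1 libraries were above it. At 20 to 27 nt (246 exons) it was 0.0839 and 0.0916 in CASC3 footprints and 0.0858 and 0.155 in RNPS1 footprints, against 0.153 and 0.132 in RNA-seq. Here both CASC3 libraries were below both RNA-seq libraries, which held only 19 and 16 counts in all, and RNPS1 overlapped them. With the 2 EEF1A1 exons added (248 exons), the ratios were 0.142 and 0.115 in CASC3 and 0.107 and 0.169 in RNPS1 footprints, against 0.505 and 0.461 in RNA-seq, so that class depends on a single gene. With 2 libraries a group no permutation test over samples can pass, and none was made.

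Native libraries differed among themselves and overlapped RNA-seq in each class from 20 to 55 nt. At 56 to 60 nt the native ratios were 0.711 to 0.943, against 0.695 and 0.700 in RNA-seq. At 46 to 50 nt they were 0.532 to 0.749 against 0.572 and 0.527 in RNA-seq, and at 35 to 40 nt they were 0.181 to 0.381, against 0.345 and 0.326 in RNA-seq. Within the native set FLAG-RNPS1 with EIF4A3 had the highest ratio in each class from 28 to 60 nt. FLAG-CASC3 with EIF4A3 came next except at 46 to 50 nt, where FLAG-MAGOH with RNPS1 had 0.653 and it had 0.641, with 1 library each and no measure of their spread.

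**Figure D2:**
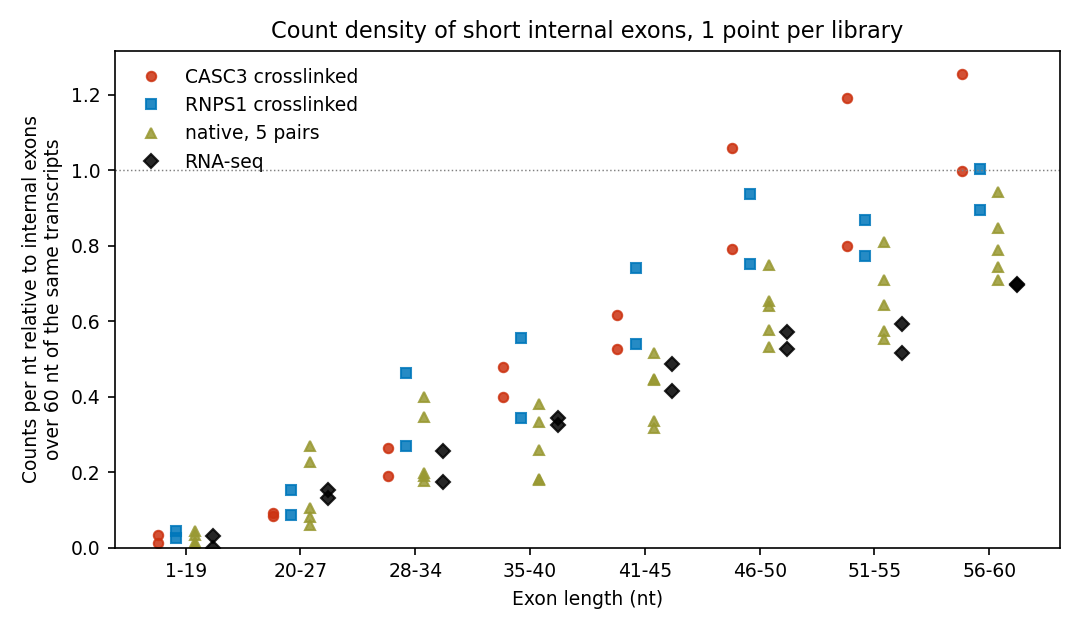
Counts per nt of short internal exons relative to internal exons over 60 nt of the same transcripts (vertical axis, from 0), by exon length in nt, 1 point per library, for untreated crosslinked CASC3 and RNPS1 footprints, the 5 native footprint libraries and RNA-seq. In these ratios, pooled over transcripts, the 4 crosslinked libraries lie above both RNA-seq libraries at 41 to 45 nt and in each longer class. At 35 to 40 nt 3 of the 4 do, and at 20 to 34 nt the groups overlap in part.

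With cycloheximide, density was lower on shorter exons in 3 of the 4 libraries. The library that stood apart had 0.290 at 1 to 19 nt, and its 0.765 at 41 to 45 nt was above its 0.699, 0.720 and 0.733 in the longer classes. In cycloheximide-treated CASC3 footprints the ratio was 0.0774 and 0.0467 at 20 to 27 nt, 0.337 and 0.305 at 28 to 34 nt and 1.31 and 1.61 at 56 to 60 nt. Cycloheximide-treated RNPS1 footprints had 0.166 and 0.151 at 20 to 27 nt and 1.04 and 0.733 at 56 to 60 nt, where the second value of each pair is from the library that stood apart. At 56 to 60 nt both cycloheximide-treated CASC3 libraries were above both untreated ones, 1.31 and 1.61 against 0.998 and 1.25.

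The exons next to the shortest ones were looked at in the same way. For exons directly upstream of an internal exon of 27 nt or less (223 exons), the ratio was 1.08 and 1.09 in untreated CASC3 footprints and 1.26 and 1.15 in untreated RNPS1 footprints, against 1.18 and 1.08 in RNA-seq, so the groups overlapped. In the native libraries it was 1.19 to 1.47, and all 5 were above both RNA-seq libraries, with 1 library a pair. For the exons directly downstream (265 exons) the ratio was 0.924 to 1.15 in the 4 crosslinked untreated libraries, against 1.15 and 1.12 in RNA-seq.

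The members of 28 to 60 nt made up a larger share of footprint libraries than of RNA-seq, as a choice by summed counts that are mostly footprints favours. They held 1.10% and 1.37% of the counts of untreated CASC3 footprints and 1.15% and 1.399% of untreated RNPS1 footprints, against 0.373% and 0.324% of RNA-seq. They were mostly coding (93.9% of 5447 with a sequence), with a median length of 52 nt and median introns of 1419 nt before and 1293 nt after. Their median GC content was 45.8%, against 49.3% in the 93576 internal exons over 60 nt and under 500 nt with at least 20 counts, and 76.7% ended in G, against 80.5%. Of those within the coding sequence, 39.6% had a length divisible by 3, against 38.6% of the longer exons.

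Short exons of several gene lists were counted. Collagens, the triple-helical proteins of the extracellular matrix, had 196 short internal exons, of which 48 in 5 genes were members; 45 of the 48 were multiples of 3, and 38 were 45 or 54 nt long, lengths long known from fibrillar collagen genes. Of 29 listed genes known for neuronal microexons, 19 had a short internal exon in the table. Of their 18 exons of 27 nt or less none was a member. Of all internal exons of that length 0.787% were members, so nothing is read from that count. Their 18 members were longer, among them exons of 48 nt in AGRN (289 summed counts), 57 nt in EIF4G1 (237) and 60 nt in MEF2A (146). In the other lists, members are given of all short internal exons of the list. Ribosomal protein genes had 23 of 25, and SR and hnRNP genes, which encode splicing regulators, 22 of 24. Kinesins, the microtubule motors, had 25 of 50, and ZNF genes, the zinc finger proteins, 59 of 97. Proteasome genes had 30 of 42 and aminoacyl-tRNA synthetase genes 18 of 21. Of all internal exons of 28 to 60 nt 38.3% were members, and no difference between lists was tested.

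The sequences of 7 longer members on which the following results turn are given with the 8 positions 20 to 27 nt before the 3′ end in capitals, from GENCODE v29 transcripts (GRCh38). They lie at chr21:45987610-45987654 (COL6A1, plus strand, exon 8 of 35), chr19:35269446-35269492 (USF2, plus strand, exon 2 of 10), chrX:85268294-85268341 (ZNF711, plus strand, exon 7 of 9), chr5:179615546-179615595 (HNRNPH1, minus strand, exon 12 of 13), chr6:34243468-34243518 (HMGA1, plus strand, exon 5 of 6), chr19:38837594-38837651 (HNRNPL, minus strand, exon 11 of 13) and chr19:18431647-18431706 (SSBP4, plus strand, exon 7 of 18), and all are coding.
COL6A1, 45 nt: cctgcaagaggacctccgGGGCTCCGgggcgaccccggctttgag
USF2, 47 nt: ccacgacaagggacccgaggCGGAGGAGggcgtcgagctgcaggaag
ZNF711, 48 nt: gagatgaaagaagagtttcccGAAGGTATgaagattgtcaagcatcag
HNRNPH1, 50 nt: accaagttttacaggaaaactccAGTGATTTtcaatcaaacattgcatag
HMGA1, 51 nt: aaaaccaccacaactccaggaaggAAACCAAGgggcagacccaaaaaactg
HNRNPL, 58 nt: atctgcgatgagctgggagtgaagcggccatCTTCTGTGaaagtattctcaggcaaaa
SSBP4, 60 nt: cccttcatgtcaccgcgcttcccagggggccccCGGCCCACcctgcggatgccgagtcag
Their GC content runs from 34.0% in HNRNPH1 to 73.3% in COL6A1 and SSBP4.

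Footprints and RNA-seq were compared exon by exon in a fit of 6 libraries, in which 276 members passed the filter on low counts. Of these, 250 did not reach the cutoff in both RNA-seq libraries and so passed through footprints, which fixes much of their direction. The counts describe these 276 and not all 5474. Against RNA-seq, 145 of the 276 were called higher and 13 lower in CASC3 footprints, where 20.3% of all 38550 exons tested were called higher and 21.9% lower. In RNPS1 footprints 134 were called higher and 28 lower. The shares were 25.7% and 24.5% of all exons and 36.9% and 7.52% of the longer internal exons. The median log2 fold change of the 276 was 2.50 in CASC3 and 2.24 in RNPS1. Setting the 34 members with no RNA-seq count to the bound of a floor of 3 counts over the group gave 2.15 and 2.097. The median was 0.34 and 0.52 over all exons tested, and 0.97 and 1.24 over the longer internal exons. The number called was 102 in CASC3 without CASC3 replicate 2 and 249 without CASC3 replicate 1; in RNPS1 it was 96 without RNPS1 replicate 2, and 282 and 253 without CASC3 replicates 1 and 2.

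The other 26 members reached the cutoff in both RNA-seq libraries, and such a choice leans toward exons that are high in RNA-seq, as that of the 250 leans toward footprints. Of the 26, 2 were called higher and 13 lower in CASC3, and none was called higher and 23 lower in RNPS1; of the 250, 143 were called higher and none lower in CASC3, and 134 higher and 5 lower in RNPS1. The 2 sets are given side by side as a description of the filter, and their directions support nothing about short exons. ENO1, the gene for the glycolytic enzyme enolase, held 2 exons of 59 nt among the 26. Its exon 4 had 3.18 and 3.78 CPM in CASC3 footprints and 3.83 and 4.59 CPM in RNPS1 footprints, against 46.3 and 38.0 CPM in RNA-seq, so that footprints lay well below RNA-seq with no overlap. Of 17 tested short exons of ribosomal protein genes, under the same filter, 6 were lower and 4 higher in CASC3, and 15 were lower and none higher in RNPS1.

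To take the level of the transcript out, each exon was tested against the rest of its own transcript (exon use). In CASC3 footprints 72 of 276 members were called higher and none lower. Of all 34511 exons 10.1% were called higher and 4.06% lower, and of the longer internal exons 9.93% and 0.756%. The median log2 difference was 1.74, against 0.32 over all exons and 0.58 over the longer internal exons. In RNPS1 footprints 55 were called higher and none lower. The shares were 12.5% and 7.75% of all exons and 12.8% and 0.511% of the longer internal exons. The median was 1.44, against 0.44 over all exons and 0.69 over the longer internal exons. Of these higher calls, 68 of the 72 and 54 of the 55 were among the 250 members that passed the filter through footprints. That choice favours higher calls in this test too, so the calls support nothing about short exons in general. Among the 26 members that reached the cutoff in RNA-seq, 4 were called higher in CASC3 and 1 in RNPS1, with medians of 0.55 and 0.65. Without RNA-seq replicate 1 only 12 members were called in CASC3 and 20 in RNPS1, and without RNA-seq replicate 2 only 15 and 21. In CASC3, 42 were called without CASC3 replicate 2 and 122 without CASC3 replicate 1. In RNPS1, 30 and 83 were called without RNPS1 replicates 2 and 1, and 121 and 104 without CASC3 replicates 1 and 2.

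Values of single exons are given as a description, with no test, since each of the 5 that follow passed the filter through footprints, where it is high. HMGA1, an architectural protein of chromatin, had 41.3 and 190 CPM on its exon of 51 nt in CASC3 footprints, against 2.62 and 1.69 CPM in RNA-seq. Both CASC3 libraries were far above RNA-seq, though they differed from each other. RAN, the GTPase of nuclear transport, had 31.8 and 93.2 CPM on its exon of 46 nt in CASC3 footprints, against 3.49 and 0 CPM in RNA-seq. SSBP4, a protein named for binding single-stranded DNA, had 43.4 and 49.1 CPM on its exon of 60 nt in CASC3 footprints, against 0.873 and 0.845 CPM in RNA-seq. Neither exon overlapped RNA-seq, and in SSBP4 the footprint replicates were close.

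In RNPS1 footprints, ZNF711, an X-linked zinc finger transcription factor, had 72.7 and 66.1 CPM on its exon of 48 nt, against 6.11 and 2.54 CPM in RNA-seq. SF3A2, a subunit of the U2 snRNP of the spliceosome, had 46.4 and 50.2 CPM on its exon of 50 nt in RNPS1 footprints, against 3.49 and 3.38 CPM in RNA-seq. Untreated RNPS1 replicates lay close together on these exons, and neither overlapped RNA-seq.

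Untreated CASC3 and RNPS1 footprints were set against each other in a fit of the 8 crosslinked libraries, with 2361 members tested. An exon passed the filter through any of the 4 groups, so the counts describe these 2361 and not all 5474. CASC3 footprints were higher on 16 members and lower on none, with 0.285% of all 104449 exons called higher and 0 lower. Of the longer internal exons 0.217% were called higher and 0 lower. Without replicate 2 of the cycloheximide-treated RNPS1 footprints, members were called in both directions, in shares near those of all exons in that fit. The median log2 fold change in that fit was -0.38, against -0.22 over all exons. In the full fit the median log2 fold change was -0.23, against -0.17 over all exons and -0.31 over the longer internal exons. With groups at 0 set to their bound it was -0.06, against -0.14 over all exons. None was called without CASC3 replicate 2 or either untreated RNPS1 replicate, 7 without either cycloheximide-treated CASC3 replicate, and 105 without replicate 1 of the treated RNPS1 footprints. Exon use differed for no member by edgeR, with 119 of 2361 at an unadjusted p under 0.05 and 2981 of 102220 exons in all; 4 members were called without replicate 2 and 3 without replicate 1 of the treated RNPS1 footprints.

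The 16 included 5 of 20 tested exons of ribosomal protein genes. RPS12, a protein of the small ribosomal subunit, had 26.5 and 232 CPM on its exon of 51 nt in CASC3 footprints, against 2.98 and 4.34 CPM in RNPS1 footprints (log2 fold change 5.31, SE 0.97, edgeR adjusted p = 0.000196). PAM16, part of the mitochondrial import motor, had 15.9 and 69.3 CPM on its exon of 31 nt in CASC3 footprints. In RNPS1 footprints it had 1.28 and 0.241 CPM. The PAM16 exon passed the filter on low counts through CASC3 footprints, where it is high, so no test of it is given. On both exons CASC3 replicate 2 was several times above replicate 1, and neither overlapped RNPS1. RPS28 had 34.97 and 69.3 CPM on its exon of 48 nt in CASC3 footprints, against 1.28 and 2.17 CPM in RNPS1 footprints, and 13.1 and 8.45 CPM in RNA-seq. Both RNPS1 libraries were below both RNA-seq libraries on that exon, and both CASC3 libraries were above them.

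Short exons were called in both directions with cycloheximide in CASC3 footprints, and the balance of directions depended on single libraries. Exon use was not tested for any comparison with cycloheximide-treated libraries, the interaction included. In these, a change of the whole transcript and one of its short exon cannot be told apart. Of 2361 members 301 were called higher and 241 lower with cycloheximide. Of all exons 7.24% were called higher and 11.3% lower, and of the longer internal exons 8.64% and 7.6%. The median log2 fold change over all exons was 0.20 and over the longer internal exons 0.44. Over the members it was 0.64. It was 0.57 with the 201 members at 0 in both untreated libraries and the 16 at 0 in both treated ones set to their bound. Leaving out 1 library of the fit moved the number called to between 38 and 1077, the lowest, 7 higher and 31 lower, without replicate 2 of the cycloheximide-treated CASC3 footprints. Without its replicate 1, 48 were higher and 34 lower. Without untreated CASC3 replicate 1 11 were higher and 163 lower, and without replicate 2, 16 and 63. With the CASC3 groups alone in the fit, 579 of 1723 were higher and 264 lower. Without untreated RNPS1 replicate 1, 138 were higher and 176 lower, and without replicate 2, 145 and 154. The highest came without replicate 2 of the cycloheximide-treated RNPS1 footprints. Higher calls outnumbered lower ones in that fit and in the fit without its replicate 1. Without replicate 2 the median log2 fold change was 0.82, against 0.27 over all exons and 0.51 over the longer internal exons.

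The direction went with base composition. The members called higher with cycloheximide had a median GC content of 40.7%, those called lower 62.2%, and all tested 47.5%. Weighted by counts, the members' GC content was 44.4% and 44.98% in cycloheximide-treated CASC3 libraries, against 52.3% and 55.0% in untreated ones. It was 44.2% and 50.5% in cycloheximide-treated RNPS1 libraries, the second from the library that stood apart, against 50.1% and 52.1% in untreated ones. RNA-seq libraries had 48.01% and 48.03%. Cycloheximide-treated libraries were also the deepest, with 6700871 to 8056882 counts in 3 of the 4, and the part of base composition or depth in the changes was not tested.

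**Figure D3:**
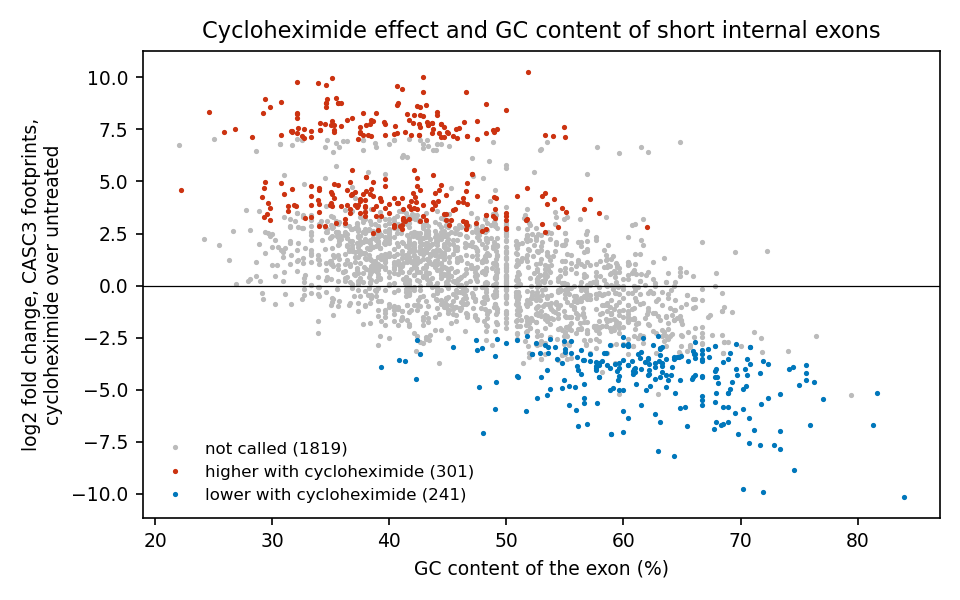
Fitted log2 fold change of CASC3 footprints with cycloheximide over untreated (vertical axis) against GC content of the exon in percent, 1 point for each of 2361 members, red where called higher (301) and blue where called lower (241). The called exons lie toward opposite ends of GC content and overlap in between, with medians of 40.7% and 62.2%, and the separate upper band holds exons with 0 counts in both untreated libraries, whose fitted values depend on the prior count.

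Among the exons that were lower, USF2, a helix-loop-helix transcription factor, had 0.124 and 0 CPM on its exon of 47 nt in cycloheximide-treated CASC3 footprints, against 25.4 and 136 CPM in untreated ones. A single count remained of 132, a pooled ratio of 0.000937 (95% exact counting interval 2.35e-05 to 0.00531). HMG20B, a subunit of a histone demethylase complex, had 0 counts on its exon of 56 nt in both cycloheximide-treated CASC3 libraries, against 14 and 42 in untreated ones, which makes it at least 151-fold lower. SEPT9, a cytoskeletal septin, had 0 counts on its exon of 57 nt in both, against 15 and 34, at least 132-fold lower. The HMG20B exon passed the filter on low counts through untreated CASC3 footprints, where it is high, so its bound is a description only. SSBP4 had 0.496 and 0.149 CPM with cycloheximide on the exon shown above, against 43.4 and 49.1 CPM without it (log2 fold change -6.97, SE 1.11, edgeR adjusted p = 2.61e-07).

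Among the exons that were higher were several with no count in untreated CASC3 footprints. SMAD7, an inhibitor of TGF-beta signalling, had 89 and 427 counts on its exon of 54 nt in cycloheximide-treated CASC3 libraries, against 0 and 0 in untreated ones, at least 21.3-fold higher. NSMCE4A, a subunit of the SMC5/6 complex, had 231 and 237 counts on its exon of 49 nt, against 0 and 0, at least 19.3-fold higher. DDX18, a nucleolar RNA helicase, had 187 and 261 counts on its exon of 57 nt, against 0 and 0, at least 18.5-fold higher. The untreated libraries held 943781 and 793954 counts in all, so that these bounds are limited by their depth. The SMAD7 and DDX18 exons passed the filter on low counts through treated CASC3 footprints, where they are high, so their bounds are a description only. Reads carry no molecular identifiers, so that intervals and floors cover counting error only.

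Gene lists are given by their counts, beside the 7.24% higher and 11.3% lower of all exons, and no difference between lists was tested. Of 19 tested exons of SR and hnRNP genes, 8 were higher with cycloheximide and none lower in CASC3 footprints, with a median log2 fold change of 2.13. HNRNPL, which binds CA-rich RNA, had 169 and 333 CPM on its exon of 58 nt with cycloheximide, against 26.5 and 23.9 CPM without it (3.37, SE 0.87, edgeR adjusted p = 0.00243); another row of the table has the same interval, so its reads may count for more than 1 transcript. HNRNPH1, a splicing regulator that binds G-rich RNA, had 128 and 118 CPM on its exon of 50 nt with cycloheximide, against 11.7 and 10.1 CPM without it (3.55, SE 0.91, adjusted p = 0.00236). The groups did not overlap on either exon, though the treated replicates of HNRNPL differed nearly by a factor of 2.

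Most calls on collagen and ribosomal protein exons were lower. Of 22 tested collagen exons, from at most 5 genes, 16 were lower with cycloheximide and none higher in CASC3 footprints. Their median log2 fold change was -4.17. The COL6A1 exon of 45 nt shown above had 1 and 0 counts with cycloheximide, against 11 and 26 without it, a pooled ratio of 0.00334 (95% exact counting interval 8.24e-05 to 0.0198). Of 20 ribosomal protein exons, 11 were lower and 1 higher, with a median of -2.57. The exception, RPL6, a protein of the large subunit, had 61.7 and 66.9 CPM on its exon of 49 nt with cycloheximide, against 3.18 and 3.78 CPM without it (log2 fold change 4.25, SE 1.02, edgeR adjusted p = 0.00109). Of kinesin exons 2 of 6 were higher, of ZNF exons 3 of 22 lower, of proteasome exons 2 of 17 higher and 1 lower, of tRNA synthetase exons 2 of 12 lower, and none of the 8 tested exons of microexon genes was called. These last lists hold few tested exons, and beside the 7.24% and 11.3% of all exons their counts are given with nothing read from them.

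In RNPS1 footprints 6 members were called higher and 5 lower with cycloheximide, with 0.0756% of all exons higher and 0.121% lower. Without the treated replicate 2 that stood apart, 305 were called higher and 311 lower of 3848 (8.46% and 9.31% of all 124122 exons), and then the treated group is 1 library assumed to vary like the others. Without treated replicate 1 the number called was 125, and without any other library of the fit it was 0 to 4. The COL6A1 exon of 45 nt had 0 and 0 counts in cycloheximide-treated RNPS1 libraries, against 21 and 106 in untreated ones, at least 52.8-fold lower, and it was called with and without replicate 2. NUP153, a nuclear pore protein, had 6.90 and 96.2 CPM on its exon of 53 nt with cycloheximide, against 0.850 and 0.965 CPM without it. The exon passed the filter on low counts through treated RNPS1 footprints, where it is high, so no test of it is given. Its fitted log2 fold change was 5.46, and 2.79 without replicate 2. COCH, CUTC and SUN1 were called higher with replicate 2, where they had 143, 68.4 and 79.1 CPM, and were not called without it.

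With cycloheximide, CASC3 footprints were higher than RNPS1 footprints on 266 members and lower on 83. Of all exons 4.48% were higher and 5.06% lower (9.53% in all), and of the longer internal exons 5.72% and 2.88%. Calls in both directions were more numerous without replicate 2 of the treated RNPS1 footprints, among members and among all exons. Without treated CASC3 replicate 1 or 2 the number called was 7 or 0, without untreated RNPS1 replicate 1 or 2 it was 99 or 96, and it was 718 without replicate 1 of the treated RNPS1 footprints. With only the cycloheximide-treated groups in the fit, 10 of 2866 were higher and 15 lower, so that the excess of higher calls turned. The median log2 fold change was 0.56, against 0.08 over all exons and 0.31 over the longer internal exons. Without replicate 2 of the treated RNPS1 footprints it was 0.24, against -0.03 over all exons and 0.17 over the longer internal exons. MEGF11, a transmembrane protein with EGF repeats, had 45 and 66 counts on its exon of 57 nt in treated CASC3 libraries, against 0 and 0 in treated RNPS1 ones, at least 21.9-fold higher. The MEGF11 exon passed the filter on low counts through treated CASC3 footprints, where it is high, so its bound is a description only. HDAC2, a histone deacetylase, had 37.9 and 62.8 CPM on its exon of 58 nt in treated CASC3 libraries. In treated RNPS1 libraries it had 3.03 and 0 CPM. The exon passed the filter on low counts through treated CASC3 footprints, where it is high, so no test of it is given. Its fitted log2 fold change was 4.58, and 4.28 without replicate 2 of the treated RNPS1 footprints. Among the exons called lower were those of WAC (37 nt), CUTC (60 nt), FHIT (53 nt) and RHOT2 (44 nt), on which replicate 2 had 91.9, 68.4, 53.5 and 55.6 CPM, against at most 3.31 CPM in replicate 1. Without that library none of these 4 was called, and WAC was higher in CASC3, at 1.31.

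Whether cycloheximide changed an exon differently in CASC3 and RNPS1 footprints was tested by the interaction in the same fit. It was called for 12 members, all with the more negative change in CASC3. Of all exons 0.374% were called in that direction, 0.0201% in the other and 0.394% in all. Of the longer internal exons 0.145% were called in that direction and 0.0296% in the other. The median over the members was 0.72, against 0.18 over all exons and 0.58 over the longer internal exons. RAN had 1.12 and 1.04 CPM in treated CASC3 footprints, against 31.8 and 93.2 CPM in untreated ones, and 1.66 and 6.41 CPM in treated RNPS1 footprints, against 1.28 and 2.90 CPM in untreated ones. The RAN exon passed the filter on low counts through untreated CASC3 footprints, where it is high, so no p-value is given for it. Its fitted interaction was -6.05 on the log2 scale, and -5.25 without replicate 2 of the treated RNPS1 footprints. Of the 12 exons, 4 were called without that library. The direction of the calls turned without a treated RNPS1 library, to more higher than lower in CASC3, whether replicate 2 or replicate 1 was left out. Without replicate 2 the shares called were near those of all exons in that fit. Without any other library 0 to 7 were called.

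**Figure D4:**
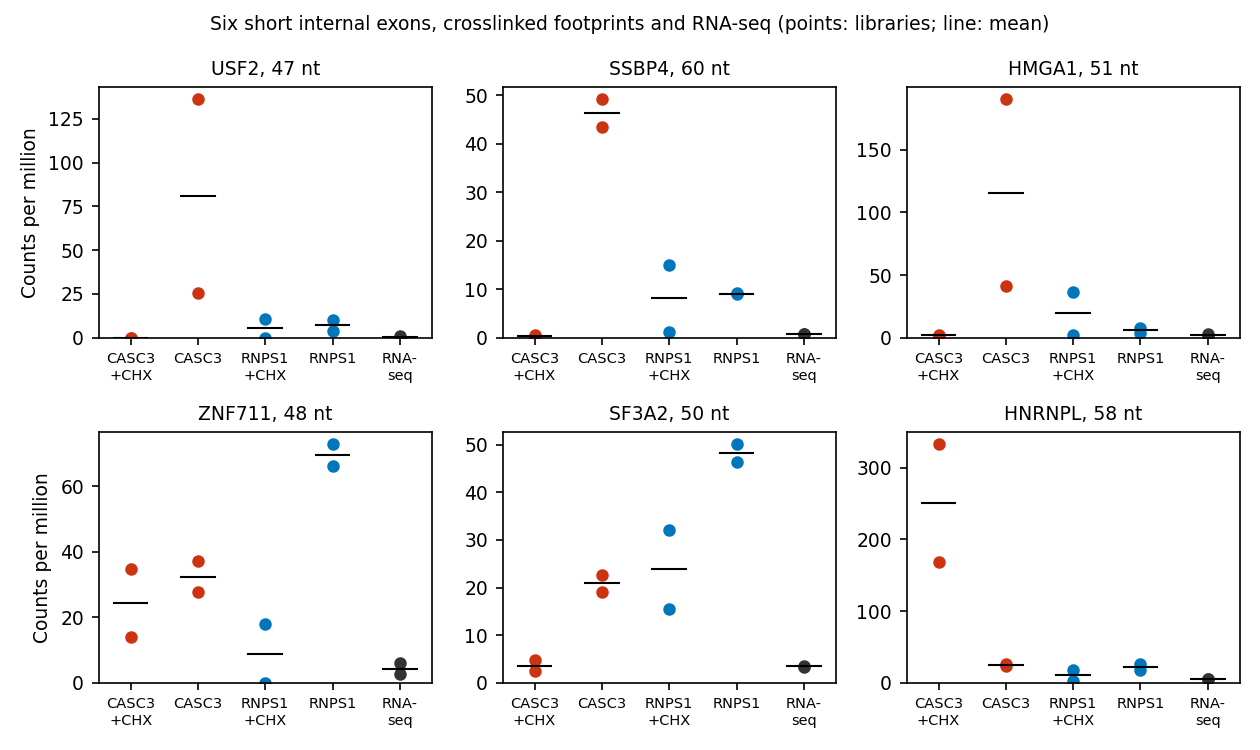
CPM (vertical axes, each from 0) on 6 short internal exons in cycloheximide-treated (+CHX) and untreated crosslinked CASC3 footprints, the same for RNPS1, and RNA-seq; points are libraries and lines are means of 2. USF2, SSBP4 and HMGA1 are highest in untreated CASC3 footprints, ZNF711 and SF3A2 in untreated RNPS1 footprints, and HNRNPL in cycloheximide-treated CASC3 footprints with 169 and 333.

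In native footprints, with 1 library a pair, members of 28 to 60 nt held 0.748% to 1.13% of the counts, against 0.373% and 0.324% in RNA-seq. ZNF711 had 64.6 CPM with FLAG-MAGOH and EIF4A3, 29.9 with FLAG-CASC3 and EIF4A3, 52.0 with FLAG-RNPS1 and EIF4A3, 12.5 with FLAG-MAGOH and CASC3, and 13.7 with FLAG-MAGOH and RNPS1. SF3A2 had 22.4, 13.9, 23.3, 36.8 and 33.8 CPM in the same pairs. Both exons were above both RNA-seq libraries in all 5 native libraries, with no replicates and no test. The exons of SSBP4 (7.17 to 26.7 CPM) and USF2 (3.14 to 10.5 CPM) were also above RNA-seq in all 5.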

How the data were processed

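The submitters' processing notes name cutadapt 1.16, TopHat2 2.1.1, bedtools and the build hg38. The authors deposited raw read counts per exon and per transcript. Not given in the sources used here are their annotation, the counting settings and how reads across junctions were assigned, which bears most on exons shorter than a read. From the deposited counts, 19 blank lines were left out.

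Exons were fitted over the whole table with edgeR 4.0.16 (R 4.3.3), using filterByExpr (minimum count 10), TMM factors, the quasi-likelihood test and Benjamini-Hochberg adjustment over all exons tested, with a threshold of 0.05; exon use came from diffSpliceDGE. The fit of 6 libraries compared untreated crosslinked footprints with RNA-seq, so that both comparisons share the RNA-seq libraries. The fit of 8 crosslinked libraries compared proteins and treatments, and its comparisons share groups. Scripts were tested on simulated data. CPM values are scaled to the library's total exon count. Exon numbers, regions and sequences came from GENCODE v29; 5458 members (99.7%) matched, 395 overlap another exon row and 324 share its interval.

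Named exons were the 10 of each length class with the highest summed counts, up to 5 called per comparison and direction with the smallest p, and the leading members of gene lists, none on chromosome 8. Members and lists were chosen with earlier results of these data known. Alternatives were DESeq2 1.42.0, no filter, the replicate block, other scalings and thresholds, and leaving out each library. Some members and sequences are not reported here.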

Additional observations from a re-analysis of the deposited data

Results flagged for a closer look

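For 12 short exons the change with cycloheximide differed between CASC3 and RNPS1 footprints, all with a more negative change in CASC3. The test was edgeR's interaction test over the 8 crosslinked libraries (Benjamini-Hochberg adjusted). Of all exons 0.374% were called in that direction and 0.0201% in the other, and of the longer internal exons 0.145% and 0.0296%. The difference of the log2 fold changes, CASC3 minus RNPS1, was -9.00 for RPS12 (51 nt), -8.04 for USF2 (47 nt), -7.90 for ARHGEF1 (43 nt), -7.73 for TMA7 (56 nt), -7.43 for ZNF618 (39 nt) and -7.18 for HMGA1 (51 nt). It was -6.06 for SSBP4 (60 nt), -6.05 for RAN (46 nt), -5.94 for ZNF276 (47 nt), -5.75 for CEACAM19 (54 nt), -5.40 for the USF2 exon of 59 nt and -5.16 for WAC (37 nt). ARHGEF1, and USF2 at 47 nt, had only 0 and 1 counts over both cycloheximide-treated CASC3 libraries, so their fitted values depend on the prior count. The RAN exon passed the filter on low counts through untreated CASC3 footprints, where it is high, so its calls here and in the next paragraph are a description only.

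Without replicate 2 of the cycloheximide-treated RNPS1 footprints, the library that stood apart, 4 of the 12 were still called: RPS12 at -5.60, RAN at -5.25, and HMGA1 and TMA7 at -4.48 each. The other 8 were not, and WAC turned to 1.00. Over all members the calls then turned to more higher than lower, in shares near those of all exons in that fit. The calls also turned that way without replicate 1 of that group. The median GC content of the 12 exons was 66.4%, against 47.5% over the 2361 tested, and the part of base composition was not tested.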

How the results depend on the processing

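Members called, in either direction, in the fits as described were 158 (CASC3 against RNA-seq), 162 (RNPS1 against RNA-seq), 72 and 55 (the same for exon use), 16 (CASC3 against RNPS1), 349 (the same with cycloheximide), 542 (cycloheximide in CASC3), 11 (cycloheximide in RNPS1) and 12 (interaction). Without a filter they were 323, 530, 167 (RNPS1 exon use), 7, 193, 1 (cycloheximide in RNPS1) and 5 (interaction). With DESeq2 they were 105, 95 and 4 for the RNA-seq comparisons and cycloheximide in RNPS1. With only the groups compared they were 57 and, for exon use, 2 (CASC3 against RNPS1), 25 with cycloheximide (10 higher and 15 lower), 843 for cycloheximide in CASC3 and 0 in RNPS1. The replicate block gave 2 for cycloheximide in RNPS1; same-letter replicates correlated between groups at -0.00888 to 0.233 over 104449 exons, and the labels do not say that a letter is a batch.

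Leaving out 1 library gave 102 to 249, 96 to 282, 12 to 122, 20 to 121, 0 to 105, 0 to 4 (exon use of CASC3 against RNPS1), 0 to 790, 38 to 1077, 0 to 616 and 0 to 348. CASC3 minus RNPS1 with cycloheximide on the WAC exon was -5.75 without treated RNPS1 replicate 1 and reversed to 1.31 without replicate 2; the cause was not tested.

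The log2 density ratio, crosslinked untreated footprints minus RNA-seq, was 0.71 (SD 0.24, 0.61 to 0.81 leaving out 1 library) for members of 28 to 60 nt. The SD here is that between replicates within the footprint groups and leaves out the spread of RNA-seq. As a median over transcripts the ratio was 0.14, which rests in part on the fraction of a count added to each transcript. For members of 27 nt or less the pooled ratio was 0.13 (SD 0.53, -0.10 to 0.36). It was -1.496 with a minimum of 10, 0.84 with 50, -2.07 with none and 0.72 with the boundary at 22 nt. All these values include the EEF1A1 exons. Without exons with an annotated gap under 30 nt it was -0.18 at the minimum of 20. Its sign thus depends on the EEF1A1 exons and on the count minimum. With no minimum and without such exons, those of 20 to 27 nt lay at -0.76 and -0.63 in CASC3 and -0.73 and 0.12 in RNPS1 footprints. RNA-seq depth limits the shortest exons, with 19 and 16 counts on 246 exons.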
